A study of Mus musculus with 10 samples.

Results

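Immunoglobulin variable (V) segment genes were examined in RNA-seq of the mouse cochlea. They were taken as every gene with the biotype IG_V_gene in the count files, which gave 218 of 54532 genes. Of these, 113 lie in the heavy chain locus (chr12:113578504-116000461), 102 in the kappa light chain locus (chr6:67555497-70704177) and 3 in the lambda light chain locus (chr16:19085017-19260859), in mm10 (GRCm38) coordinates. At least 1 read was counted on 168 of the V segments over the 10 mice, and none on the other 50, of which 41 are heavy chain and 9 kappa segments.

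All mice were mtKeima animals, which carry a fluorescent reporter protein targeted to mitochondria. The study gives their genetic background as mixed. Whether the V segments of these mice differ from those of mm10, on which reads were counted, was not examined. The NR group, 5 mice, drank water with nicotinamide riboside, a precursor of NAD+, at 7 mg/ml (24 mM) from 2 months of age for 10 months, and the Vehicle group, 5 non-treated mice, drank regular water. Cochleae were taken at 12 months of age, and mRNA was purified from their total RNA with poly-T beads. It was sequenced to find which transcripts differ between treated and non-treated mice. The labels give the mice as female and the study's methods as male. The female-specific transcript Xist lay between 0.0881 and 0.405 CPM and the Y-linked Ddx3y between 64.5 and 84.9 CPM in the 10 libraries. By these levels all 10 libraries came from male mice, as in the methods. CPM are counts per 1000000 counts of the library, with its total scaled by the trimmed mean of M values (TMM).

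The total count per library lay between 17060379 and 24419230. All 12 of 12 cochlear marker genes had reads in every library. Their summed level was 3099 to 4767 CPM in NR and 3389 to 6115 CPM in Vehicle mice. Most of it was Coch, at 2113 to 4202 CPM, and Slc26a5 was lowest, down to 0.0464 CPM in Vehicle 5. At an unadjusted p of 0.05 in edgeR, 0 of the 12 were higher and 4 lower in NR. Over all genes tested, 4.83% were higher and 4.88% lower. Markers of blood and marrow were also present in every library, with 1372 to 4650 CPM in NR and 1404 to 5638 CPM in Vehicle mice for 8 neutrophil genes, and 7408 to 13072 CPM in NR and 4130 to 17938 CPM in Vehicle mice for 8 erythroid genes. The mice of 1 group are separate labelled samples, and no pair of libraries agreed within counting noise.

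V segments are the germline pieces from which the antigen-binding part of an antibody is assembled. Each developing B cell joins 1 heavy chain V segment to D and J segments and 1 light chain V segment to a J segment, and its descendants keep that choice. Plasma cells transcribe the assembled genes at very high levels, so that a small number of cells of 1 clone can place many reads on a single V segment. The last bases of the V exon encode the start of the third complementarity-determining region, the loop that lies at the centre of the antigen-binding site.

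A selection of the kappa segments described below is shown first: Igkv6-13, Igkv1-117 and Igkv5-39, each the leading segment of a mouse, Igkv19-93, close behind Igkv5-39 in Vehicle 3, Igkv4-55, with the lowest p of a V segment between the groups, and Igkv8-30, whose groups did not overlap. They are given as the last 60 bases of their V exons, with the codon of the conserved cysteine that precedes the third complementarity-determining region in capitals. The codon was taken as the last in-frame cysteine codon of the V exon. Sequences are GENCODE M21 transcripts in GRCm38. Igkv6-13 (chr6:70457501-70457560), Igkv5-39 (chr6:69900424-69900483), Igkv19-93 (chr6:68736297-68736356), Igkv4-55 (chr6:69607275-69607334) and Igkv8-30 (chr6:70117061-70117120) lie on the minus strand and Igkv1-117 (chr6:68121768-68121827) on the plus strand.
Igkv6-13: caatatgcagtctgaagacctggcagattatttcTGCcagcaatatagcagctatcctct
Igkv1-117: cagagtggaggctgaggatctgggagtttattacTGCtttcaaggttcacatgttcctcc
Igkv5-39: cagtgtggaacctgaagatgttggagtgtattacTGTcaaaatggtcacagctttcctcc
Igkv19-93: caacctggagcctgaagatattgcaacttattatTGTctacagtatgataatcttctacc
Igkv4-55: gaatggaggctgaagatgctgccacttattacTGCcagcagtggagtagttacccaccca
Igkv8-30: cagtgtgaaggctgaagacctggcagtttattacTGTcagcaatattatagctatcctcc

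The 3 lambda segments are all on the minus strand, at chr16:19085017-19085076 for Iglv1, chr16:19260401-19260460 for Iglv2 and chr16:19241207-19241266 for Iglv3, and are shown in the same way because 2 of them are close copies. The V exons of Iglv1 and Iglv2 differ at 9 bases of 305 (97.0% identity). Iglv3 is 55.9% identical to Iglv1, its nearest V segment in the lambda locus. It was not compared with segments of the other loci.
Iglv1: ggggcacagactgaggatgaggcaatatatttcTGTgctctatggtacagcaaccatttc
Iglv2: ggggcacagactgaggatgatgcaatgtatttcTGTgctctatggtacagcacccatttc
Iglv3: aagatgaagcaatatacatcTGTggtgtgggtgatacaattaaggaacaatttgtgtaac

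Of the heavy chain segments, 3 of the Ighv8 family each led in at least 1 mouse, and the last 150 bases of their V exons are shown because reads must be told apart by the bases at which they differ. Capitals mark the 14 positions of this stretch at which the 3 are not all alike, of 27 such positions in the whole V exon of 312 bases. They lie on the minus strand at chr12:115067560-115067709 (Ighv8-5), chr12:115567149-115567298 (Ighv8-11) and chr12:115647945-115648094 (Ighv8-12).
Ighv8-5: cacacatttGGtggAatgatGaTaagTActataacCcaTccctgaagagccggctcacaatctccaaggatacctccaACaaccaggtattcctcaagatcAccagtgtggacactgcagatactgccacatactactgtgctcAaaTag
Ighv8-11: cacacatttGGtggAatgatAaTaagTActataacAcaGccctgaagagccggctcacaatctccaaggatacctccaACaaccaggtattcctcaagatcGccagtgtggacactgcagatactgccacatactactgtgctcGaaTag
Ighv8-12: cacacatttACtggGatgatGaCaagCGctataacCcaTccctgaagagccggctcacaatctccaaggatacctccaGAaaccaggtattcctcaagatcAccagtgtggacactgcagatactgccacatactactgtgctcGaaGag

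Over all 10 mice, 25813 reads lay on V segments: 23053 on kappa, 2058 on heavy chain and 702 on lambda segments. The summed level of all V segments was 103, 43.8, 110, 72.9 and 100 CPM in NR mice 1 to 5, and 175, 85.3, 195, 202 and 87.5 CPM in Vehicle mice 1 to 5. Vehicle 1, 3 and 4 were above every NR mouse, whereas Vehicle 2 and 5 lay within the NR range, so the groups overlapped. The mean was 86.1 ± 27.5 CPM (SD, n = 5) in NR and 149 ± 58.0 CPM (SD, n = 5) in Vehicle mice, a difference of mean log2 levels of -0.76 ± 0.37 (SE). No p-value is given for this or any other sum over the V segments, because they were chosen with earlier results of these data known. In whole tissue, fewer antibody-producing cells and less antibody mRNA per cell cannot be told apart.

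By locus, the kappa sum was 89.8, 39.6, 96.8, 62.3 and 90.8 CPM in NR and 164, 69.2, 177, 185 and 76.1 CPM in Vehicle mice, with 887 to 4370 reads behind each value. Its order was nearly that of the total, since kappa segments held most V reads, and the log2 difference was -0.77 ± 0.40 (SE). The heavy chain sum was 7.75, 2.95, 11.4, 7.68 and 7.46 CPM in NR and 7.98, 10.5, 13.3, 14.9 and 9.28 CPM in Vehicle mice, from 66 to 338 reads. Here 4 of 5 NR mice lay below every Vehicle mouse and NR 3 lay within the Vehicle range, with a log2 difference of -0.67 ± 0.36 (SE). The lambda sum was 5.73, 1.25, 1.99, 2.92 and 2.14 CPM in NR and 3.17, 5.60, 5.05, 1.98 and 2.13 CPM in Vehicle mice, from 28 to 125 reads. NR 1 was the highest of all 10 for lambda, and the log2 difference of -0.42 ± 0.48 (SE) was smaller than its standard error. Without the leading lambda segment of each mouse it was 0.17.

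**Figure D1:**
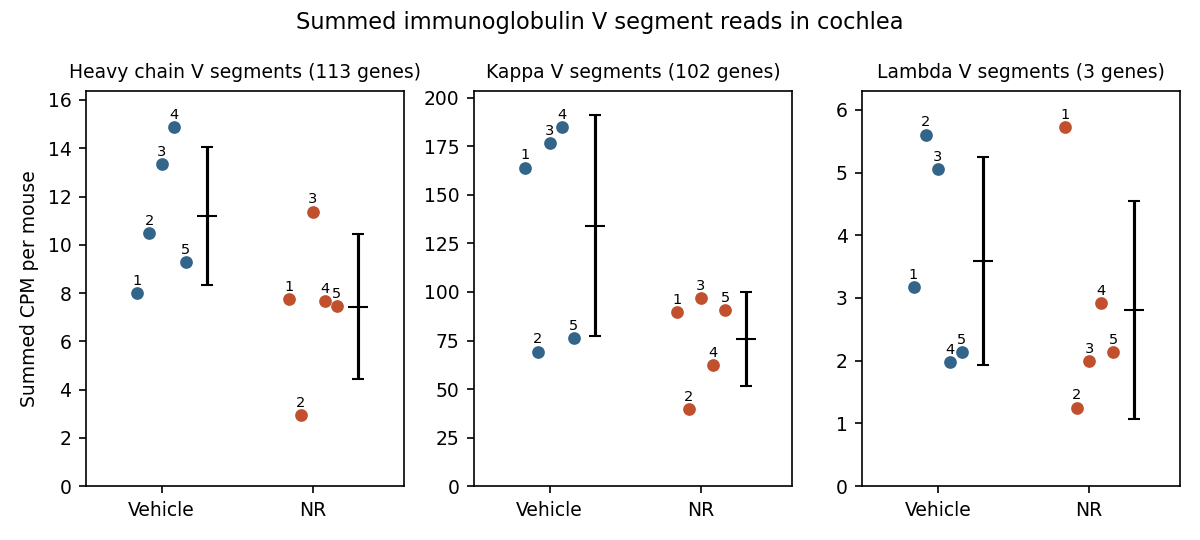
Summed level of heavy chain, kappa and lambda V segments in CPM (vertical axis, from 0) in each mouse, labelled by replicate number, with the mean and SD of each group (n = 5) at its side. Vehicle 1, 3 and 4 stand at 164 to 185 CPM for kappa, above the highest NR mouse at 96.8 CPM, while Vehicle 2 and 5 lie among the NR mice.

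The proportions of the loci overlapped between the groups. Kappa segments held 96.4 ± 1.66% of light chain V reads in NR and 96.8 ± 2.51% in Vehicle mice (SD, n = 5), the rest being lambda. The lambda share was highest in Vehicle 2, at 7.49%, and lowest in Vehicle 4, at 1.06%. Heavy chain segments held 8.50 ± 1.78% of V reads in NR and 8.34 ± 3.10% in Vehicle mice. The number of kappa reads per heavy chain read ranged from 6.59 in Vehicle 2 to 20.6 in Vehicle 1, wider than the range of 8.11 to 13.4 among NR mice.

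The kappa segment with the most reads differed between mice. It was Igkv8-27 in NR 1 with 10.9% of kappa V reads, Igkv1-117 in NR 2 with 29.1%, Igkv12-44 in NR 3 with 15.5%, Igkv15-103 in NR 4 with 13.7% and Igkv4-91 in NR 5 with 10.1%. In Vehicle mice it was Igkv1-117 in replicate 1 with 22.7%, Igkv8-30 in replicate 2 with 8.43%, Igkv5-39 in replicate 3 with 16.1%, Igkv6-13 in replicate 4 with 37.5% and Igkv10-96 in replicate 5 with 12.7%. Igkv1-117 was thus the only kappa segment to lead in more than 1 mouse, and it did so in 1 mouse of each group. The exact 95% binomial interval was 36.1 to 39.0% for Igkv6-13 in Vehicle 4 and 26.1 to 32.2% for Igkv1-117 in NR 2, so that counting error is small against these differences. Such intervals cover counting error only, since reads of 1 transcript molecule are not independent.

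Several mice had more than 1 prominent kappa segment. In Vehicle 1, Igkv6-13 followed Igkv1-117 with 17.1%. In Vehicle 3, Igkv19-93 held 15.5% and Igkv1-122 13.9% beside Igkv5-39. Igkv1-122, which was chosen after its values were seen, had 606 reads in Vehicle 3, and 99.3% of its summed CPM came from that mouse. It had no read in any NR mouse, where a count of 0 over the group allows up to 0.0282 CPM. This limit pools the NR mice and covers counting error only, not differences between mice. Igkv3-3, also chosen after its values were seen, had 63 reads in Vehicle 2 and none in the other 9 mice.

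The heavy chain segment with the most reads also changed from mouse to mouse. In NR mice 1 to 5 it was Ighv2-2 with 26.7% of heavy chain V reads, Ighv14-1 with 12.1%, Ighv8-12 with 35.7%, Ighv8-11 with 30.1% and Ighv1-9 with 14.7%. In Vehicle mice 1 to 5 it was Ighv8-12 with 20.5%, Ighv2-2 with 35.0%, Ighv8-5 with 38.5%, Ighv1-72 with 20.7% and Ighv8-5 with 23.0%. Counts were low, so intervals were wide: Ighv14-1 in NR 2 had 8 of 66 reads, with an exact 95% interval of 5.38 to 22.5%, and Ighv8-5 in Vehicle 3 had 127 of 330 reads, with 33.2 to 44.0%. Ighv2-2 and Ighv8-12 each led in 1 mouse of each group, and Ighv8-5 in 2 Vehicle mice.

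Ighv8-12 shows how uneven a single segment was. Its level was 0, 0, 4.06, 0.0872 and 0.0578 CPM in NR mice 1 to 5, and 1.64, 0.404, 0.768, 0.0440 and 1.44 CPM in Vehicle mice 1 to 5. Ighv8-5, in contrast, was at 0.0481, 0.0447, 0.0864, 0.174 and 0 CPM in NR mice and at 0, 0.179, 5.13, 0.352 and 2.13 CPM in Vehicle mice. Ighv8-11 had 2.31 CPM in NR 4 and at most 0.528 CPM in any other mouse. The 3 segments shown above therefore had their highest levels in different mice, NR 3, Vehicle 3 and NR 4, although their V exons differ pairwise at only 14 to 22 bases.

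Lambda segments were less mixed, since there are only 3. Iglv1 held the most lambda reads in every mouse except NR 1, with 59.5 to 89.6% of them. In NR 1 the leading segment was Iglv3 with 51.3%, at 2.94 CPM against 0.0872 to 0.768 CPM in the other 9 mice. Iglv2 was at 1.16, 0.134, 0.0864, 0.218 and 0.405 CPM in NR and at 0.149, 0.0448, 0, 0.0440 and 0.0928 CPM in Vehicle mice. Most Iglv2 values thus rested on few reads, and reads that fit Iglv1 and Iglv2 equally well were not counted on either.

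**Figure D2:**
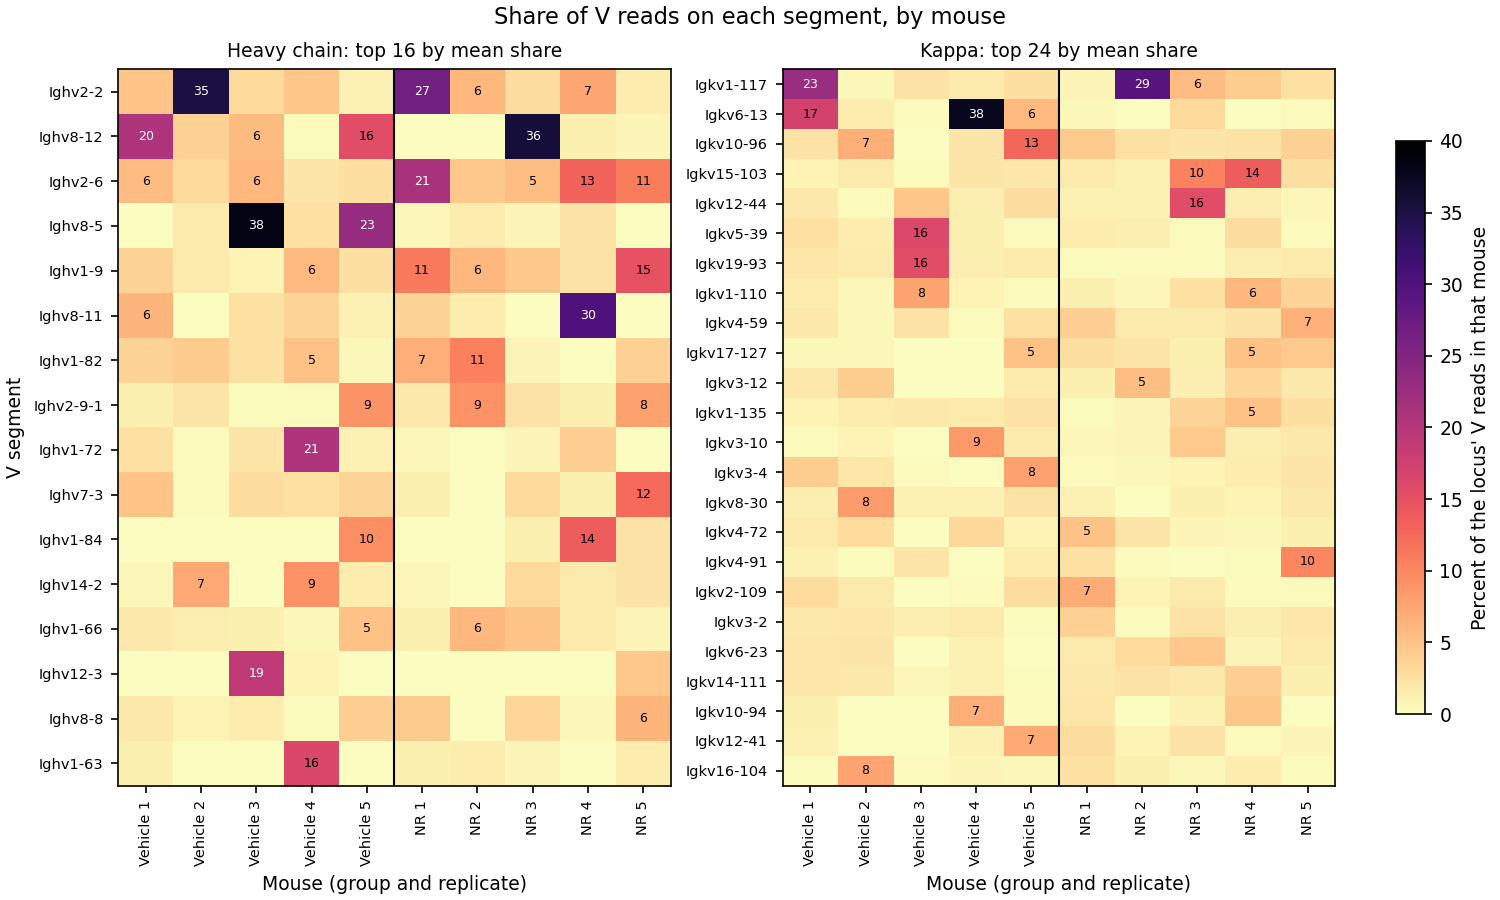
Percent of the heavy chain (left) and kappa (right) V reads of each mouse that lay on each of the 16 and 24 segments with the highest mean share. Each column is 1 mouse, colour gives the percent on a scale from 0 to 40, and shares of 5% or more are printed; dark cells are scattered over different rows in different mice, as for Igkv6-13 in Vehicle 4 and Ighv8-12 in NR 3.

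Concentration of the V reads within a mouse was described by the effective number of segments, the number of equally used segments that would give the same chance that 2 reads lie on 1 segment. For kappa it was 23.4, 10.0, 19.0, 22.6 and 31.1 in NR mice 1 to 5, and 11.0, 28.9, 11.5, 6.24 and 22.5 in Vehicle mice 1 to 5. The most concentrated kappa reads were those of Vehicle 4, followed by NR 2, Vehicle 1 and Vehicle 3, so the 3 Vehicle mice with high kappa sums were concentrated and the other 2 were not. NR 2, however, was concentrated with the lowest kappa sum of all. The mean was 21.2 ± 7.66 in NR and 16.03 ± 9.36 in Vehicle mice (SD, n = 5), a difference within the SD of either group.

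The leading kappa segment held 15.9 ± 7.70% in NR and 19.5 ± 11.3% in Vehicle mice, and the leading 5 held 37.8 ± 6.20% and 48.0 ± 12.7% (SD, n = 5). From 3 segments in Vehicle 4 to 13 in NR 5 were needed to reach 50% of kappa reads. At a common depth of 887 reads, 59.0 to 66.9 kappa segments had a read in NR mice and 49.5 to 67.7 in Vehicle mice. Without thinning, the numbers were 59 to 74 and 63 to 75. The groups overlapped in each of these measures.

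Heavy chain V reads gave effective numbers of 7.45, 19.5, 6.90, 7.32 and 15.3 in NR and 14.8, 6.77, 5.13, 10.8 and 10.0 in Vehicle mice. The highest value belonged to NR 2, the mouse with the fewest heavy chain reads and, for kappa, one of the most concentrated. Means were 11.3 ± 5.78 in NR and 9.52 ± 3.77 in Vehicle mice (SD, n = 5). The leading heavy chain segment held 23.9 ± 10.1% in NR and 27.5 ± 8.56% in Vehicle mice. At 66 reads per mouse, 21.4 ± 2.67 heavy chain segments had a read in NR and 20.8 ± 3.05 in Vehicle mice, whereas without thinning the numbers were 29.2 ± 4.87 and 34.0 ± 2.83.

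**Figure D3:**
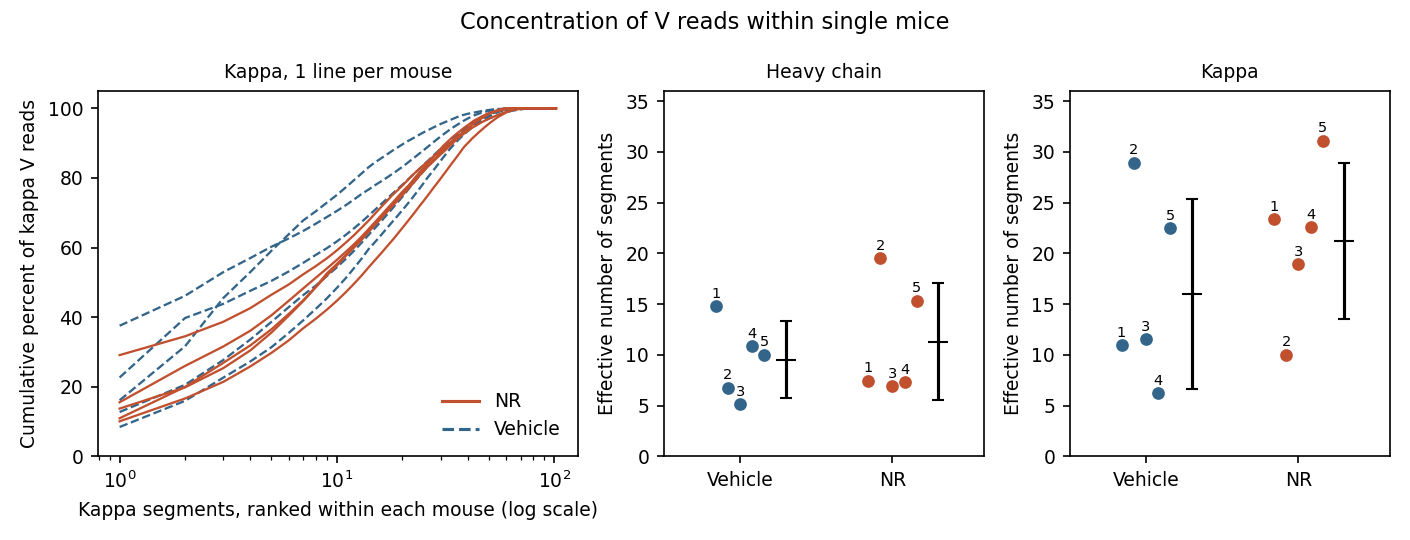
Left, cumulative percent of kappa V reads against the rank of the segment within each mouse (log scale), 1 line per mouse, and right, the effective number of heavy chain and kappa segments in each mouse with the mean and SD of each group (n = 5). For kappa, Vehicle 4 is lowest at 6.24 and NR 5 highest at 31.1, and the groups overlap in both loci.

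Shared usage was measured between pairs of mice as the summed percent of V reads that fell on the same segments in both. For kappa it was 44.9% on average over the 10 pairs within NR, 35.0% over the 10 pairs within Vehicle and 39.0% over the 25 pairs between the groups. For heavy chain segments the averages were 32.5%, 31.2% and 32.4%. The range of kappa pairs between groups, 19.99 to 56.4%, covered the range of the pairs within either group. Pairs share mice, so these averages are a description.

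Families of related segments were used unequally. In the heavy chain locus, Ighv1, with 53 of 113 segments, held on average 34.5% of reads, while the 9 Ighv8 segments held 23.1% and the 9 Ighv2 segments 20.4%. In the kappa locus, Igkv4, with 26 of 102 segments, held 16.5%, and Igkv6, Igkv1 and Igkv3, with 9, 10 and 9 segments, held 13.99%, 13.3% and 10.5%. The share of the Igkv6 family varied from 4.37 to 41.3% between mice and that of Ighv8 from 3.03 to 48.5%. In NR mice the Ighv8 share was 19.3 ± 17.1% and in Vehicle mice 26.8 ± 19.98% (SD, n = 5). Kappa segments lie in both orientations, and the 38 on the plus strand held 43.1% of kappa reads and the 64 on the minus strand 56.9%.

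Of the V segments, 41 had a read in all 10 mice and 25 in only 1 mouse. Among the 62 with at least 100 reads in total, 38 were seen in every mouse, and 14 had over 50% of their summed CPM from a single mouse. The mouse with the highest level was spread over all 10, from 5 segments highest in NR 2 to 24 highest in Vehicle 3. Per length, the highest mean levels were those of Igkv6-13 at 30.0 CPM per kb, Igkv1-117 at 17.03, Igkv5-39 at 11.6, Igkv19-93 at 10.6 and Igkv10-96 at 9.46 CPM per kb. The highest heavy chain segment, Ighv2-2, had 2.42 CPM per kb, and Iglv1 5.68 CPM per kb.

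Each V segment was then compared between NR and Vehicle mice with the quasi-likelihood test of edgeR, fitted on all genes that passed a filter on low counts. Of 18329 such genes, 48 were V segments (45 kappa, 2 lambda and 1 heavy chain, Ighv2-6). None passed an adjusted p of 0.05 in either direction (background over all genes 0% higher and 0% lower), and the lowest adjusted p of a V segment was 0.408. At an unadjusted p of 0.05, 0 V segments were higher in NR, against a background of 4.83% of all genes, and 7 were lower, against 4.88%. Log2 fold changes were negative for 29 of the 48 and positive for 19, with a median of -0.27 beside -0.01 over all genes. The 48 passed the filter on their own levels, so these counts do not describe all 218.

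The 7 segments at an unadjusted p of 0.05 or less were Igkv4-55, Igkv19-93, Igkv6-13, Igkv8-24, Igkv5-39, Igkv8-30 and Iglv1. Igkv4-55 was at 0.433, 0.0894, 0.259, 0.349 and 0.636 CPM in NR and at 6.20, 0.224, 10.8, 1.63 and 1.35 CPM in Vehicle mice. Vehicle 2 was within the NR range and the other 4 Vehicle mice were above it. The log2 fold change was -3.53 ± 0.90 (SE) and its p in edgeR was 0.00234 unadjusted and 0.408 adjusted.

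Igkv6-13 had the largest fold change, on levels of 0.529, 0, 2.98, 0 and 0.405 CPM in NR and 28.0, 1.08, 0.606, 69.4 and 4.50 CPM in Vehicle mice. Vehicle 4 and Vehicle 1 held nearly all of its reads, and Vehicle 2 and 3 were below NR 3. The log2 fold change was -4.68 ± 1.42 (SE), unadjusted p 0.00720, adjusted p 0.423 in edgeR. It was -3.39 without Vehicle 4.

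Igkv19-93 and Igkv5-39 were both led by Vehicle 3. Igkv19-93 was at 0.241, 0.134, 0.303, 0.872 and 1.503 CPM in NR and 3.17, 1.12, 27.4, 2.38 and 1.21 CPM in Vehicle mice, with a log2 fold change of -3.57 ± 1.05 (SE) and an adjusted p of 0.423 in edgeR. Igkv5-39 was at 1.35, 0.536, 0.432, 1.75 and 0.347 CPM in NR and 4.07, 1.03, 28.5, 2.03 and 0.278 CPM in Vehicle mice, with -3.01 ± 1.08 (SE) and an adjusted p of 0.458 in edgeR. The groups overlapped in both, for Igkv19-93 through NR 5 only. Without Vehicle 3 the log2 fold changes were -1.70 and -1.03, and the unadjusted p of Igkv5-39 was 0.164 in edgeR.

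Igkv8-30 was the only V segment of the 48 whose groups did not overlap, at 0.963, 0, 1.12, 0.567 and 1.62 CPM in NR and 2.08, 5.83, 1.86, 1.85 and 1.76 CPM in Vehicle mice. The gap between the highest NR and the lowest Vehicle mouse was small beside the spread within each group. Over all genes tested, NR lay wholly below Vehicle in 0.867% and wholly above in 0.775%, and no V segment lay wholly above. The log2 fold change of Igkv8-30 was -1.66 ± 0.64 (SE), and its p in edgeR was 0.0255 unadjusted and 0.476 adjusted. Its unadjusted p was 0.0904 without Vehicle 2 and 0.0584 without NR 4.

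Igkv8-24 had a log2 fold change of -2.09 ± 0.75 (SE), with 3.35 CPM in Vehicle 3 and at most 1.14 CPM elsewhere. Without Vehicle 3 it was -1.30, unadjusted p 0.0722 in edgeR. Iglv1, the most used lambda segment, was at 1.64, 0.760, 1.38, 2.62 and 1.27 CPM in NR and 2.28, 4.80, 4.28, 1.45 and 1.72 CPM in Vehicle mice. Its log2 fold change was -0.92 ± 0.40 (SE) with an unadjusted p of 0.0433 in edgeR, which was above 0.05 in 6 of 10 fits that left out 1 mouse and reached 0.128 without Vehicle 2. Iglv3 had a log2 fold change of 0.49 ± 0.71 (SE).

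**Figure D4:**
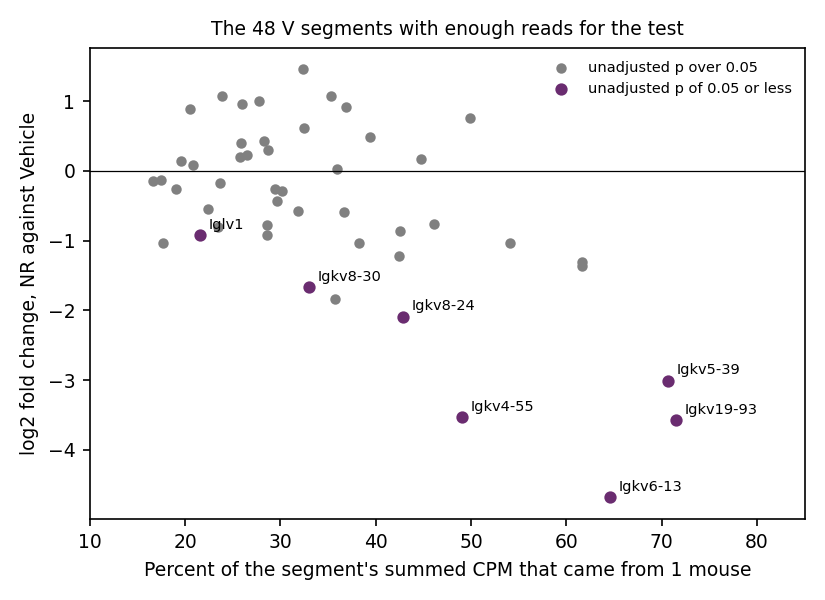
Log2 fold change of NR against Vehicle (vertical axis) for the 48 V segments that passed the filter, against the percent of the segment's summed CPM that came from the 1 mouse with the highest level. Named points are the 7 with an unadjusted p of 0.05 or less in edgeR; Igkv6-13, Igkv19-93 and Igkv5-39 lie at 64.6%, 71.5% and 70.7%.

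Among segments that led in a mouse but did not pass the unadjusted threshold, Igkv1-117 was at 0.674, 11.5, 5.40, 2.62 and 2.14 CPM in NR and 37.2, 0.404, 3.88, 3.08 and 1.90 CPM in Vehicle mice. NR 2 and Vehicle 1 were the high mice, and the log2 fold change of -1.04 ± 1.03 (SE) changed sign, to 0.95, without Vehicle 1. Igkv15-103 was at 1.49, 0.402, 10.1, 8.55 and 2.37 CPM in NR and 1.44, 1.12, 0.404, 3.96 and 1.44 CPM in Vehicle mice, with a log2 fold change of 1.46 ± 0.78 (SE) and an unadjusted p of 0.0895 in edgeR. It had the highest fold change toward NR among the leading kappa segments in this fit. Igkv12-44 (0.17 ± 1.05, SE) rested on 15.0 CPM in NR 3, Igkv4-91 (0.76 ± 1.25, SE) on 9.13 CPM in NR 5, and Igkv10-96 (-0.91 ± 0.68, SE) had its highest level, 9.69 CPM, in Vehicle 5.

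The V segments left out by the filter were tested in a second fit over the 33224 genes with at least 1 read, which covered all 168 V segments with a read. At an unadjusted p of 0.05, 3 were higher in NR (background 4.26%) and 18 lower (background 3.21%), and the lowest adjusted p was 0.484. The 3 higher were Iglv2, Igkv12-38 and Igkv4-74, the last 2 chosen after their values were seen. Igkv12-38 was at 0.866, 0, 0.475, 0 and 0.520 CPM in NR and had a single read in Vehicle mice, at 0.0464 CPM in Vehicle 5. Of the 18 lower, some had all or nearly all reads in 1 Vehicle mouse, such as Igkv1-122 and Igkv3-3, and no bound on their fold is drawn from the fit.

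With DESeq2, 68 V segments had an adjusted p. At 0.05, none was higher in NR (background 0.265%) and 2 were lower (background 0.255%), Igkv4-55 with an adjusted p of 0.0299 and Ighv8-5 with 0.0378. Ighv8-5 was not in the filtered edgeR fit, and its p in the second edgeR fit was 0.00257 unadjusted and 0.494 adjusted. For Igkv4-55 edgeR and DESeq2 thus gave different calls from the same counts.

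V segments varied more between mice of 1 group than most genes. The median biological coefficient of variation, the relative spread between mice beyond counting error as edgeR estimates it, was 0.850 for the 48 V segments and 0.149 for all genes tested. In the median V segment 31.0% of the summed CPM came from 1 mouse, beside 12.4% for all genes tested, where equal levels in 10 mice would give 10%. The V segments and all genes tested were not matched for level, and the share from 1 mouse includes counting error. How much of either gap goes with level was not tested.

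Constant regions, the parts of antibody genes that do not take part in antigen binding, allow a comparison with antibody transcripts outside the V segment. Per kb, heavy chain V segments together had 9.80 to 19.4% of the level of heavy chain constant regions in NR and 7.58 to 18.5% in Vehicle mice. For kappa this was 35.8 to 53.2% in NR and 46.9 to 97.0% in Vehicle mice, with Vehicle 4, the mouse led by Igkv6-13, at 97.0% and all others at or below 55.8%. For lambda it was 42.2 to 121% in NR and 61.0 to 201% in Vehicle mice, from few reads. In each mouse the heavy chain percent was lower than the kappa percent.

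**Figure D5:**
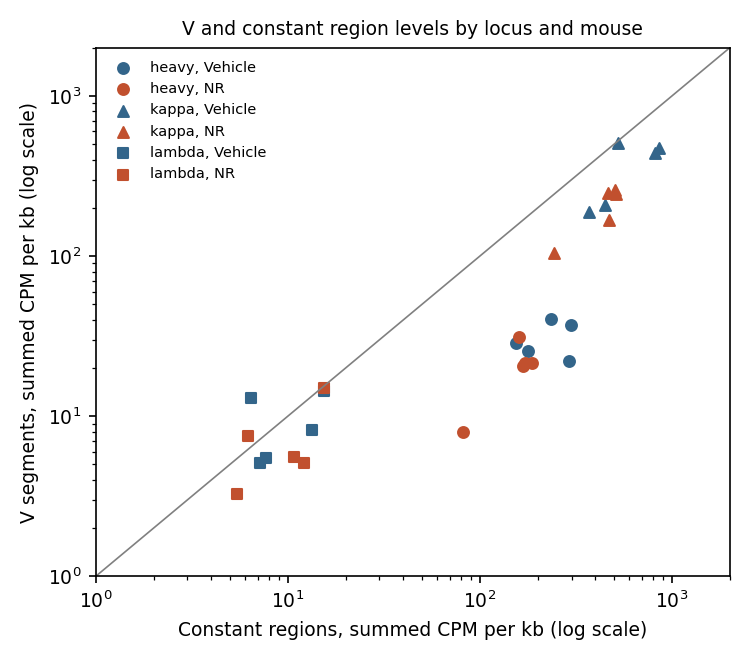
Summed V segment level against summed constant region level of the same locus, both in CPM per kb on log axes, with 1 point per mouse and locus and a grey line where both are equal. Heavy chain points lie farthest below the line, at 7.58 to 19.4%, and the kappa point nearest the line is Vehicle 4 at 97.0%.

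Over the 10 mice, the log2 summed V level was compared with the log2 sum of the constant regions, counted in the same libraries. Pearson r was 0.891 and Spearman rho 0.794. How many constant region reads came from transcripts with a V segment was not tested. With the log2 sum of 11 plasma cell genes r was 0.38 (rho 0.22). Xbp1, at 124 to 209 CPM in the 10 mice, made up most of that sum and so weighs most in this r. These correlations are descriptions over 10 points that include both groups. The plasma cell list includes Jchain, the chain that joins IgA and IgM multimers. Summed levels of the list were 205 to 302 CPM in NR and 206 to 330 CPM in Vehicle mice. At an unadjusted p of 0.05 in edgeR, 0 of its 10 tested genes were higher in NR and 0 lower. Over all genes tested, 4.83% were higher and 4.88% lower. None of these plasma cell genes was at 0 over all mice. Their part in the V segment levels was not tested.

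Of the antibody constant regions, 0 of 11 tested were higher in NR and 1 lower at an unadjusted p of 0.05 in edgeR. Over all genes tested, 4.83% were higher and 4.88% lower. The 1 lower was Ighm, which encodes the constant region of IgM. It was at 50.1, 30.4, 73.1, 41.7 and 50.5 CPM in NR and at 157, 91.0, 92.4, 238 and 144 CPM in Vehicle mice, so that the groups did not overlap, as in 0.867% of all genes tested for NR below Vehicle. The log2 fold change was -1.56 and its p in edgeR was 2.47e-04 unadjusted and 0.306 adjusted. Vehicle 4, led by Igkv6-13 and Ighv1-72, had the highest Ighm level, whereas Vehicle 3, led by Igkv5-39 and Ighv8-5, had the highest level of Igha, the IgA constant region, at 523 CPM against 91.7 to 323 CPM in the others. Which V segment was joined to which constant region cannot be read from counts per gene.

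V pseudogenes and T cell receptor V segments had far fewer reads. The 155 V pseudogenes had 310 reads in all, 0.523 to 3.17 CPM per mouse, and the 144 T cell receptor V segments had 282 reads, 0.867 to 2.98 CPM per mouse, beside 43.8 to 202 CPM for the immunoglobulin V segments. A list of 8 precursor B cell genes summed to 78.7 to 100 CPM in NR and 84.0 to 95.6 CPM in Vehicle mice. At an unadjusted p of 0.05 in edgeR, 0 of the 7 tested were higher in NR and 0 lower. Over all genes tested, 4.83% were higher and 4.88% lower. With so few genes, 0 calls cannot be told apart from these shares. Most of the summed level of the list was Ebf1, at 68.1 to 88.8 CPM over the 10 mice. Rag1 was at 1.54 to 4.23 CPM and Vpreb1 at 0.705 to 4.30 CPM. The log2 V sum had an r of -0.069 and a rho of 0.10 with the log2 sum of that list, and so mainly with Ebf1, over the 10 mice. A list of 10 T cell genes summed to 14.2 to 35.1 CPM in NR and 18.1 to 34.7 CPM in Vehicle mice. Of these, 0 of 9 tested were higher and 0 lower at the same threshold, beside the same shares over all genes.

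Because V segments are similar to each other, each V exon was compared with all other V segments and V pseudogenes of its own locus. The median identity to the nearest one was 95.1% for heavy chain and 94.5% for kappa segments. Of the named segments, Ighv1-72 was 99.0% identical to Ighv1-62-3, with 3 differing bases, Ighv2-2 was 98.0% identical to Ighv2-4, and Igkv6-13 was 96.0% identical to Igkv6-23, whereas Igkv19-93 and Igkv15-103 were 79.2% and 78.6% identical to their nearest relatives, Igkv10-94 and a V pseudogene of the Igkv15 family. Reads that fit 2 segments equally are lost in the counting, so levels of the closest pairs are uncertain. Across segments, identity and reads per kb had a Spearman rho of 0.21 for heavy chain and 0.18 for kappa segments, given as a description over 113 and 102 segments that share libraries.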

How the data were processed

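The authors deposited, for each mouse, a file of read counts per gene without normalization, made from reads aligned to mm10 with STAR (version 2.6.1d) and counted with featureCounts (version 1.5.0) in its default mode. In that mode reads that map to several places are not counted and strand is ignored. Alignment was not repeated here.

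The members and the gene lists were chosen with earlier results of these data known, and 1 list is not reported here. Counts of all genes were tested with edgeR 4.0.16 in R 4.3.3 (filterByExpr, TMM, glmQLFit and glmQLFTest, no covariate), with Benjamini-Hochberg adjustment over all genes of the fit, and standard errors from the quasi-likelihood F. DESeq2 1.42.0 was the alternative tool. Other alternatives were size factors, low-count filters, a replicate block and leaving out each mouse.

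Sums, shares and effective numbers (inverse Simpson index without replacement) used python 3.11.15 and all 218 members, without a filter. Intervals are exact binomial at 95%. A count of 0 over a group was given a limit of 3 counts over its pooled libraries, which covers counting error only. V exons were aligned end to end with edlib (1.3.9.post1); all 218 members had the same coordinates in GENCODE M21.

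Named were the 5 heavy chain and 5 kappa segments with the highest mean CPM per kb, all lambda segments, the leading heavy chain and kappa segment of each mouse, every segment with at least 20% of its locus in a mouse with at least 200 reads there, every segment at an adjusted p of 0.05, up to 5 segments per direction by smallest unadjusted p, and Ighv1-14. Ighv1-14, a V pseudogene, was included because an earlier account of these data named it. The rule named 23 V segments, and others are said to be chosen after their values were seen.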

Additional observations from a re-analysis of the deposited data

Results flagged for a closer look

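In each group of 5 mice, the highest or lowest mouse was marked where its gap to the next exceeded 0.71 of the group's range. This marked 22 of 72 groups of values. Chance alone marks about 5% of groups, but most of these values are levels of segments named because they led in a mouse or had a low p, so the count is not read against that rate. The values that follow are the mice so marked, with no account of why they stand apart.

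For whole loci, the share of the leading kappa segment was 29.1% in NR 2. Per kb, V segments had 19.4% of the constant region level for heavy chain in NR 3, 97.0% for kappa in Vehicle 4 and 201% for lambda in Vehicle 3. Among heavy chain segments in NR mice, the marked levels were 0.305 CPM for Ighv1-72 in NR 4, 0.358 CPM for Ighv14-1 in NR 2, 2.07 CPM for Ighv2-2 in NR 1, 2.31 CPM for Ighv8-11 in NR 4 and 4.06 CPM for Ighv8-12 in NR 3. In Vehicle mice they were 3.08 CPM for Ighv1-72 and 0.881 CPM for Ighv1-9, both in Vehicle 4, and 3.68 CPM for Ighv2-2 in Vehicle 2.

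Among light chain segments in NR mice, the marked levels were 15.0 CPM for Igkv12-44 and 2.98 CPM for Igkv6-13, both in NR 3, 9.13 CPM for Igkv4-91 in NR 5, and 9.82 CPM for Igkv8-27 and 2.94 CPM for Iglv3, both in NR 1. In Vehicle mice they were 37.2 CPM for Igkv1-117 in Vehicle 1, 27.4 CPM for Igkv19-93, 28.5 CPM for Igkv5-39 and 3.35 CPM for Igkv8-24 in Vehicle 3, and 5.83 CPM for Igkv8-30 in Vehicle 2. Every marked value was the highest of its group.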

How the results depend on the processing

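The log2 difference of summed V levels stayed negative for all, heavy chain and kappa segments under every alternative, and without each mouse in turn it ranged from -0.94 to -0.54 for all, -0.86 to -0.37 for heavy chain, -0.98 to -0.56 for kappa and -0.72 to -0.18 for lambda segments. The number of V segments at an unadjusted p of 0.05 depended on the fit: higher in NR were 3 with no filter, 3 with DESeq2 and 0 to 3 without 1 mouse (3 without NR 2), and lower were 18 with no filter, 11 with DESeq2 and 6 to 8 without 1 mouse. Over all genes of the same fits, 4.26%, 3.5% and 3.62 to 7.61% were higher and 3.21%, 3.07% and 2.62 to 5.71% lower. At an adjusted p, DESeq2 called 2 lower. The log2 fold change of Igkv12-44 was -2.18, unadjusted p 0.0183, without NR 3 and 0.96 without Vehicle 3. The number of heavy chain segments with a read differed by 0.54 at 1 depth and by -4.8 without thinning; thinned numbers differed by -0.50 to 1.63 without 1 mouse. The difference in the leading kappa share ranged from -6.93 to 0.884 points. The cause of these shifts was not tested.

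Replicate numbers are shared between the groups, but same-numbered mice deviated together in no regular way (correlations 0.18, -0.14, -0.24, 0.010 and 0.16). With the replicate block, 1 V segment was higher and 4 lower at an unadjusted p of 0.05, beside 4.8% and 4.23% of all genes tested, and Igkv5-39, Igkv8-30 and Iglv1 had p of 0.0985, 0.0920 and 0.121. The summed difference was -0.76 ± 0.27 (SE).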

Other observations

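Ighv1-14 (chr12:114646572-114647056) is a V pseudogene and so not counted above, and was named because an earlier account of these data named it. It had 0 reads in all 5 NR mice and 13, 2, 1, 48 and 18 reads in Vehicle mice 1 to 5. A count of 0 over the pooled NR group allows up to 0.0282 CPM by counting error alone, and Vehicle 2 and 3 rested on 2 and 1 reads. Among genes that passed the filter on low counts, NR lay wholly below Vehicle in 0.867%. Ighv1-14 had too few reads to be among those genes, so that share is not a background for it. No test of Ighv1-14 is given. Of the 82 reads of Ighv1-14, 48 came from Vehicle 4, the mouse led by Igkv6-13 and Ighv1-72.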
